A study of Rattus norvegicus with 21 samples.

Results

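Egln3, Car9, Slc2a1, Slc2a3, Vegfa, Adm, Ndrg1 and Bnip3, which low oxygen induces in many cell types, were followed in a rat model of intrahepatic cholangiocarcinoma, a tumour that arises from bile ducts within the liver. They were chosen by name as a set of 8 genes. Where several probe sets carried only that gene's symbol, the one with the largest mean across 21 arrays stood for the gene and the others served as a check. All 8 members were measured, with 11 probe sets in all, among 14218 named genes. Car9, Egln3, Ndrg1, Slc2a1 and Slc2a3 were higher in every tumour than in every liver lobe, Adm was called higher in tumours over all days and at day 25, and Vegfa and Bnip3 were not called over all days.

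The tissues came from 9 young adult male Fischer 344 rats inoculated with BDEneu cells, which are rat bile duct cells transformed with an activated neu (Erbb2) oncogene, a receptor tyrosine kinase. The 7 groups of 3 arrays each were peritoneal metastases of day 25 (rats 7, 8 and 9), BDEneu tumours of days 10 (rats 1, 2 and 3), 15 (rats 4, 5 and 6) and 25 (rats 7, 8 and 9), and the right liver lobe of the same rats at days 10, 15 and 25. Each replicate of a group was another rat, and the liver lobes, labelled normal, came from tumour-bearing animals, so no array represents a rat without a tumour. All tumours and metastases share the inoculated cell type as their source. The descriptions of the day 25 livers name day 55, against day 25 in their titles, and day 25 was used.

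Cells sense oxygen through prolyl hydroxylases, which use it to mark the alpha subunits of the hypoxia-inducible factor (HIF) for destruction through the von Hippel-Lindau protein Vhl. When oxygen is short, the alpha subunits Hif1a and Epas1 persist, pair with Arnt and bind short DNA motifs near their target genes. Among the targets are glucose transporters, glycolytic enzymes, regulators of acidity, growth factors for blood vessels and proteins of mitochondrial turnover. In liver, oxygen falls along the path of the blood from the portal to the central vein.

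Levels are log2 expression values as deposited, and a difference of 1 is a doubling in scale. They are compared within a gene only, because probe sets differ in how strongly they bind. Within a group, values are given in the order of the rat numbers.

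The labels were checked first. Erbb2 lay between 9.47 and 10.80 in the metastases and between 8.72 and 10.73 in the tumours, against 4.98 to 5.69 in the livers. Epcam, a surface protein of bile duct epithelium, lay between 12.34 and 12.48 in the metastases and between 11.56 and 12.36 in the tumours, against 6.51 to 9.07 in the livers. The mean of 17 measured hepatocyte genes was 6.00 to 7.06 in the metastases and 8.34 to 12.19 in the tumours, against 12.86 to 13.28 in the livers, so the tumour pieces held hepatocyte transcripts in varying amounts. A set of 3 arrays stood apart in 9 pancreatic acinar genes: the metastasis of rat 8 had a mean of 11.21 and the tumours of rats 5 and 9 had 9.09 and 8.87, whereas the other 18 arrays lay between 5.17 and 6.75. Over all probe sets the metastasis of rat 7 had r of 0.993 with its tumour, against 0.960 and 0.959 in rats 8 and 9. Calls of a member that changed without these arrays are named below.

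The promoters of 3 members hold the core letters that HIF is known to bind, ACGTG or GCGTG, within the window from 250 bases before to 50 bases after the gene start (RefSeq, assembly GRCr8). They are shown because these 3 genes followed different courses in the tissues described next. Matches are in capitals, on the gene's own strand as written or, read on the other strand, as CACGT or CACGC; sequences run 5′ to 3′ along the gene.
Car9 (chr5:62558774-62559073, plus strand): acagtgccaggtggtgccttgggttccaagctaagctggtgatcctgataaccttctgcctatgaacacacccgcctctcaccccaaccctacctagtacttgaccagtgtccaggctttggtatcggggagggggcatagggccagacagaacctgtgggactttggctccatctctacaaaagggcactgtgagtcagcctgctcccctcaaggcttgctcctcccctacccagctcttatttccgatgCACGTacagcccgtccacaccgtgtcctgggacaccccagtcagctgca
Slc2a1 (chr5:138002272-138002571, plus strand): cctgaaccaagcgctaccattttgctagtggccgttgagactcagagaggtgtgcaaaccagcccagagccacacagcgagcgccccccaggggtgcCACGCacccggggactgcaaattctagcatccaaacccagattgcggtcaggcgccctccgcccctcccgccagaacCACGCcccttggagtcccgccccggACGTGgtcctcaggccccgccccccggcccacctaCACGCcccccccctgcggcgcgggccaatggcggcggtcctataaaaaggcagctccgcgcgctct
Bnip3 (chr1:203154913-203155212, minus strand): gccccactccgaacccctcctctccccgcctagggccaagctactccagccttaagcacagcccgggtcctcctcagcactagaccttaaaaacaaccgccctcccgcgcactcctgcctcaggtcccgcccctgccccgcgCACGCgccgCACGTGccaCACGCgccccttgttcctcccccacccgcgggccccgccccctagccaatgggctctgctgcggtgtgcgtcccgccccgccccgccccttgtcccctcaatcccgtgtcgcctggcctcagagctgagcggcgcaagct

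Slc2a1 held 4 matches, 153, 76, 51 and 16 bases before the start. Bnip3 also held 4, at 108, 99, 98 and 90 bases before the start, of which those at 99 and 98 overlap because CACGTG reads alike on both strands. Car9 held 1 match, at position 2 after the start. Of all 33469 RefSeq promoters, 41.6% hold at least 1 match, 19.2% at least 2 and 3.46% at least 4. No match was found in this window for Egln3, Adm and Vegfa, and Ndrg1 and Slc2a3 are named only.

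**Figure D1:**
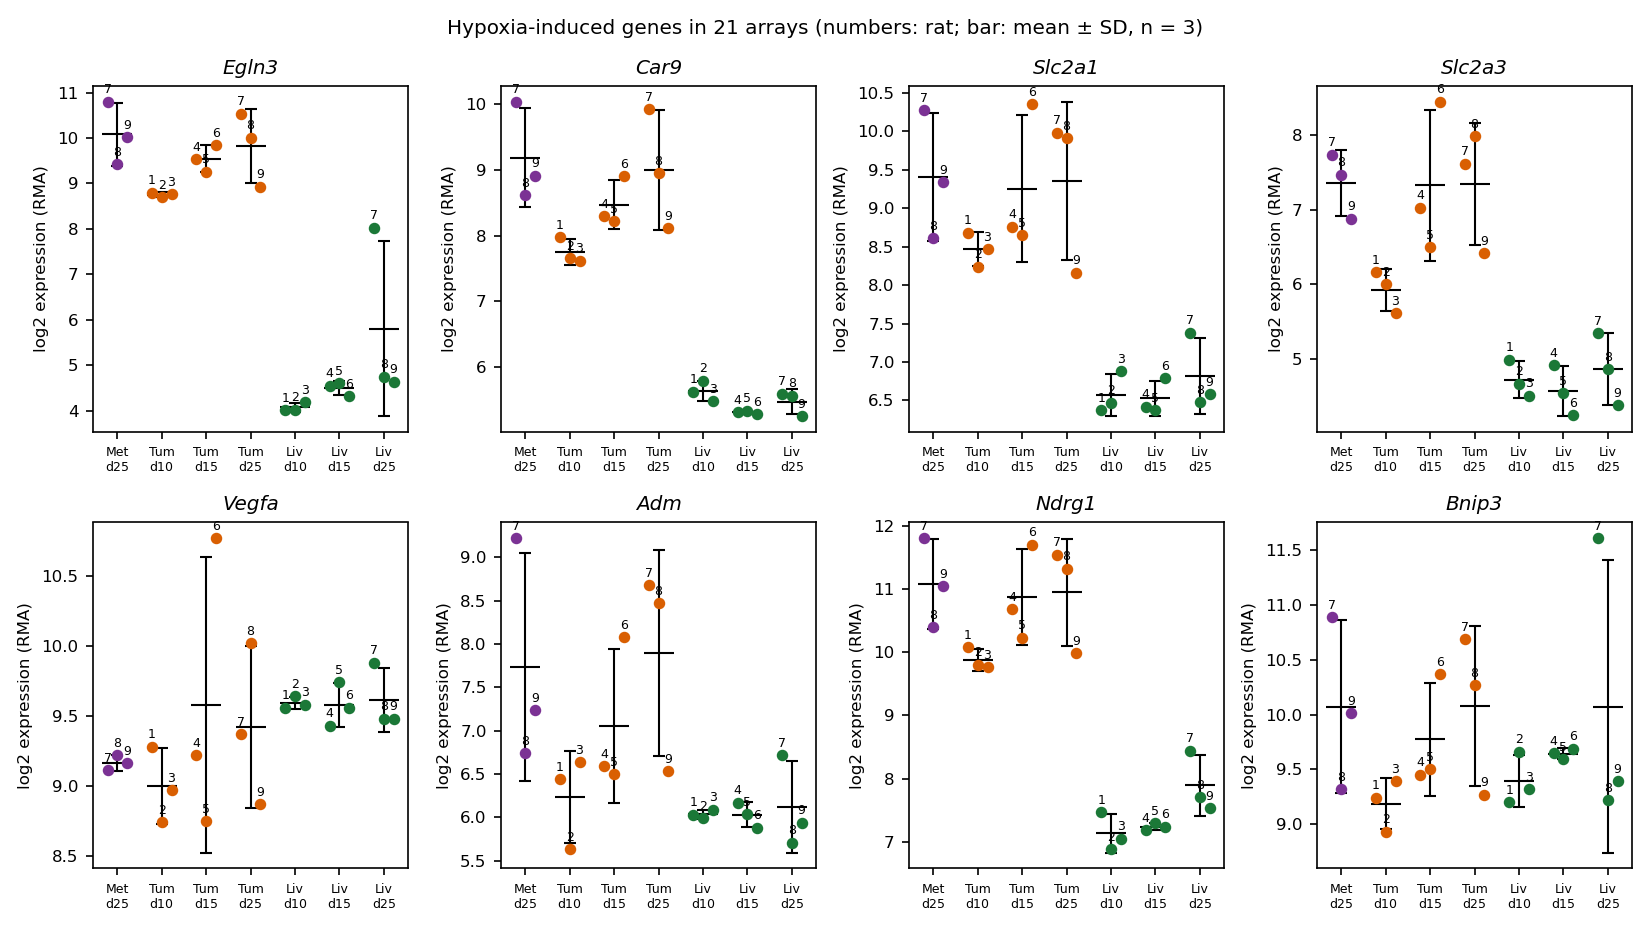
Log2 expression of the 8 genes (vertical axis, 1 panel per gene) in the metastases, tumours and livers of each day (horizontal axis). Points are single arrays numbered by rat, and the bar with whiskers is the mean with SD of 3 arrays. Tumours and metastases lie above all livers for Egln3, Car9, Slc2a1, Slc2a3 and Ndrg1, and the liver of rat 7 stands apart for Egln3 and Bnip3.

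The first comparison asked which of these genes set the tumour apart from the liver lobe of the same rats. Over all days 6 of the 8 members were called higher in tumour than in liver and none lower (limma over 14218 genes, adjusted p under 0.05). Tumour and liver differ in much of the transcriptome, and 36.8% of all genes were called higher and 37.8% lower in the same test. The median difference of the 8 members was 2.26 on the log2 scale, beside -0.03 for all genes. In bulk tissue, fewer cells of a type and less RNA per cell cannot be told apart.

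Among the oxygen sensors, Egln3 encodes a HIF prolyl hydroxylase that is itself induced when HIF is active (probe set 1368174_at). It was at 10.80, 9.43 and 10.02 in the metastases, at 8.80, 8.70 and 8.76 in day 10 tumours, at 9.54, 9.26 and 9.85 in day 15 tumours and at 10.54, 10.01 and 8.93 in day 25 tumours. The livers had 4.01, 4.02 and 4.19 at day 10, 4.55, 4.61 and 4.32 at day 15 and 8.03, 4.75 and 4.64 at day 25. Every tumour exceeded every liver, and the day 25 liver of rat 7 stood far above the other 8 livers. Those 8 lay under the lowest array median of 5.98, so the fold below rests on low liver values. Egln3 averaged 9.38 ± 0.65 in tumours and 4.79 ± 1.25 in livers (SD, n = 9 each), a difference of 4.58 (SE 0.37, limma adjusted p = 1.1e-08), which is 24.0-fold and the largest of the 8 members. Without the 3 arrays of rat 7 the difference was 4.83 (SE 0.14).

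Car9 encodes carbonic anhydrase 9, an enzyme of the cell surface that hydrates CO2 and helps cells to keep their pH (1393452_at). Its level was 10.03, 8.61 and 8.91 in the metastases, 7.97, 7.66 and 7.62 in day 10 tumours, 8.29, 8.22 and 8.90 in day 15 tumours and 9.92, 8.95 and 8.11 in day 25 tumours. In livers it was 5.63, 5.80 and 5.49 at day 10, 5.32, 5.34 and 5.29 at day 15, and 5.60, 5.57 and 5.26 at day 25. The livers were uniformly low, including that of rat 7, and the lowest tumour lay well above the highest liver. All livers lay under the lowest array median of 5.98, so the fold rests on low liver values. The tumour-liver difference over all days was 2.92 (SE 0.21, limma adjusted p = 3.2e-09), or 7.58-fold. It was 2.11 at day 10, 3.15 at day 15 and 3.51 at day 25, each called.

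Slc2a1, the glucose transporter GLUT1 (1370848_at), was at 10.27, 8.61 and 9.34 in the metastases. The tumours had 8.68, 8.24 and 8.47 at day 10, 8.76, 8.65 and 10.35 at day 15 and 9.98, 9.91 and 8.16 at day 25, against 6.37, 6.47 and 6.88, 6.42, 6.37 and 6.79, and 7.38, 6.48 and 6.58 in the livers of the same days. All tumours exceeded all livers, and 3 tumours, of rats 6, 7 and 8, formed a separate upper set with a gap of 1.15 to the others. The difference was 2.38 (SE 0.29, limma adjusted p = 1.5e-06), or 5.22-fold, and it was called at each day.

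Slc2a3, the glucose transporter GLUT3 (1372326_at), was at 7.74, 7.47 and 6.88 in the metastases. The tumours had 6.16, 6.00 and 5.61 at day 10, 7.03, 6.50 and 8.45 at day 15 and 7.62, 7.99 and 6.42 at day 25, against 4.99, 4.67 and 4.51, 4.92, 4.54 and 4.25, and 5.35, 4.86 and 4.38 in the livers of the same days. The groups did not overlap, but the margin between the lowest tumour, of day 10, and the highest liver was small. All livers and that lowest tumour lay under the lowest array median of 5.98. The difference over all days was 2.15 (SE 0.26, limma adjusted p = 1.1e-06), or 4.42-fold, and 1.00 by the other probe set (SE 0.19, adjusted p = 0.00014). At day 10 it was 1.20 (adjusted p = 0.029) and was not called with the other probe set (0.47, adjusted p = 0.22) or when 1 of 4 single arrays was left out (adjusted p 0.066 to 0.086; tumours of rats 1 and 2, livers of rats 2 and 3).

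Ndrg1 encodes a stress-responsive cytoplasmic protein that is induced by hypoxia and during differentiation (1371360_at). It was at 11.80, 10.39 and 11.04 in the metastases, and in the tumours at 10.08, 9.80 and 9.76 at day 10, 10.68, 10.23 and 11.70 at day 15 and 11.54, 11.32 and 9.98 at day 25. The livers of the same days had 7.47, 6.88 and 7.05, then 7.18, 7.30 and 7.24, then 8.44, 7.71 and 7.53. Tumours and livers were apart at every day. The difference was 3.14 (SE 0.24, limma adjusted p = 6.5e-09), or 8.84-fold, and 1.61 by the other probe set (SE 0.18, adjusted p = 7.3e-07).

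Adm encodes adrenomedullin, a secreted peptide that widens blood vessels (1387219_at). It was at 9.22, 6.74 and 7.24 in the metastases, and in the tumours at 6.44, 5.63 and 6.64 at day 10, 6.59, 6.50 and 8.08 at day 15 and 8.68, 8.47 and 6.53 at day 25. The livers of the same days had 6.03, 5.99 and 6.09, then 6.17, 6.04 and 5.88, then 6.72, 5.71 and 5.94. The tumours of rats 6, 7 and 8 were high, the other 6 tumours lay near the livers, and the day 10 tumour of rat 2 was below all of them. Over all days the difference was 1.00 (SE 0.35, limma adjusted p = 0.017). By day it was 0.20 at day 10 and 1.03 at day 15, neither called, and 1.77 at day 25 (adjusted p = 0.023), where leaving out 1 of 4 single arrays ended the call (adjusted p 0.064 to 0.10; tumours of rats 7 and 8, livers of rats 8 and 9).

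Vegfa encodes the main growth factor for blood vessels (1373807_at). It was at 9.11, 9.22 and 9.16 in the metastases, and in the tumours at 9.28, 8.74 and 8.97 at day 10, 9.22, 8.75 and 10.77 at day 15 and 9.37, 10.02 and 8.87 at day 25. The livers of the same days had 9.56, 9.64 and 9.58, then 9.43, 9.74 and 9.56, then 9.88, 9.48 and 9.48. Livers were uniform, most tumours lay below them, and only the tumours of rats 6 and 8 exceeded the liver of the same rat. The difference was -0.26 (95% interval -0.71 to 0.18, limma adjusted p = 0.27), and -0.19 by the other probe set (adjusted p = 0.46). Without the tumour of rat 6 it was -0.46 and was called lower (adjusted p = 0.0062).

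Bnip3 encodes a protein of the outer mitochondrial membrane that promotes removal of mitochondria (1387805_at). It was at 10.89, 9.32 and 10.01 in the metastases, and in the tumours at 9.24, 8.93 and 9.39 at day 10, 9.45, 9.50 and 10.37 at day 15 and 10.69, 10.27 and 9.27 at day 25. The livers of the same days had 9.20, 9.66 and 9.32, then 9.65, 9.59 and 9.69, then 11.61, 9.22 and 9.39. The groups overlapped at day 10, day 15 and day 25, and the liver of rat 7 was the highest of all 21 arrays. The difference was -0.02 (95% interval -0.66 to 0.62, limma adjusted p = 0.95). Without the 3 arrays of rat 7 it was 0.13 (adjusted p = 0.49).

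**Figure D2:**
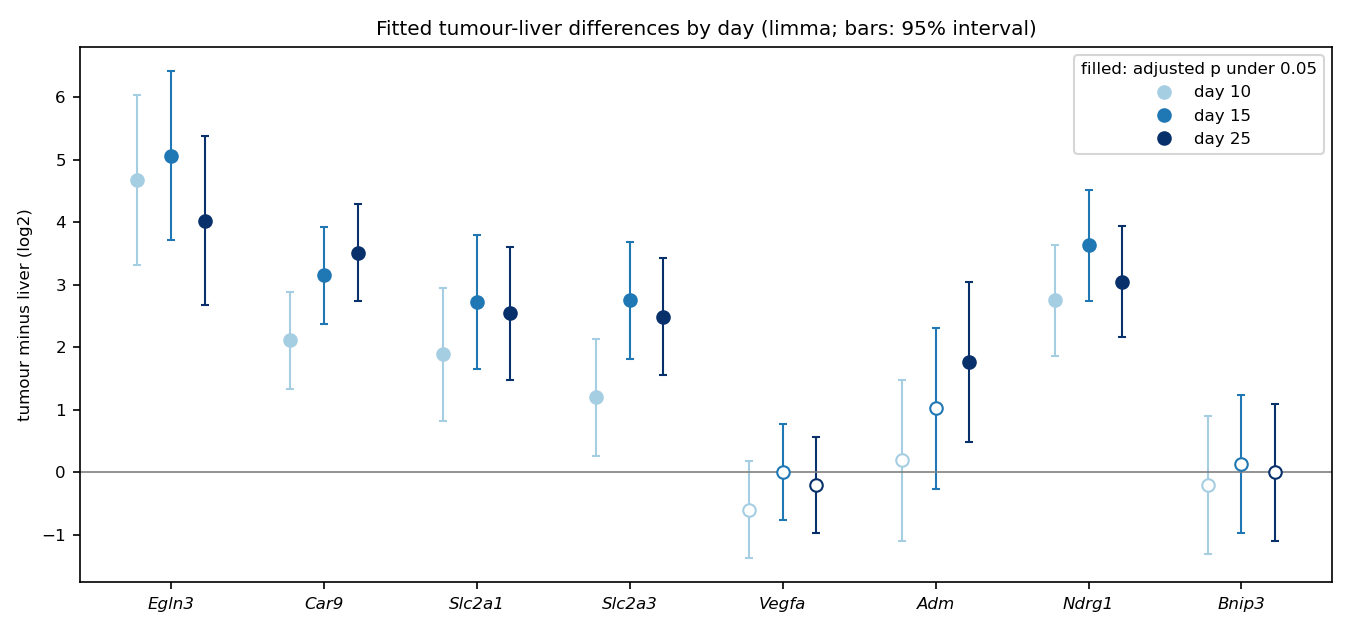
Fitted tumour-minus-liver difference on the log2 scale (vertical axis) for the 8 genes (horizontal axis) at days 10, 15 and 25. Bars are 95% intervals from the limma fit, filled points have adjusted p under 0.05 and open points do not. Egln3, Car9, Slc2a1, Slc2a3 and Ndrg1 are filled at each day, Adm only at day 25, and Vegfa and Bnip3 lie near 0.

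All 9 tumours lay above all 9 livers for 5 of the 8 members, Car9, Egln3, Ndrg1, Slc2a1 and Slc2a3, which 19.7% of all genes did. By day, 5 members were called higher in tumour at day 10, beside 30.4% of all genes, 5 at day 15 (28.2% of all genes) and 6 at day 25 (27.7% of all genes). Within rats, the tumour exceeded the liver lobe in 9 of 9 rats for those 5 members, in 8 of 9 for Adm, in 4 of 9 for Bnip3 and in 2 of 9 for Vegfa. Within rats, the difference of Egln3 ran from 2.51 in rat 7 to 5.53 in rat 6.

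Marker genes of several cell types moved with the same contrast. The biliary list averaged 10.60 to 11.19 in tumours and 5.63 to 7.25 in livers (8 of 10 genes measured). The neutrophil list averaged 8.22 to 9.64 in tumours and 5.42 to 8.08 in livers (8 genes). The macrophage list averaged 9.77 to 10.39 in tumours and 8.72 to 9.90 in livers, which overlap (11 of 12 measured). The myofibroblast list averaged 10.58 to 12.00 in tumours and 7.12 to 8.52 in livers (8 genes). Overlap was also seen for blood vessel endothelium, at 6.70 to 8.03 in tumours and 6.75 to 7.34 in livers. Red blood cell genes overlapped too, at 6.21 to 7.36 in tumours and 6.78 to 7.70 in livers. The part of these cells in the differences of the 8 members was not tested.

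The machinery that senses oxygen held genes called in both directions. Of 9 measured genes of the HIF and oxygen sensing list (10 listed), 3 were called higher in tumour than in liver, 4 lower and 2 in neither direction, beside 36.8% higher and 37.8% lower of all genes, with a median difference of -0.06 beside -0.03 for all genes. Hif1a, the alpha subunit present in most cells, averaged 11.48 ± 0.08, 11.73 ± 0.43 and 11.43 ± 0.29 in tumours of days 10, 15 and 25, against 9.59 ± 0.10, 9.88 ± 0.09 and 9.86 ± 0.07 in livers (SD, n = 3 each), a difference of 1.77 (SE 0.11, limma adjusted p = 4.1e-10). Its tumours and livers did not overlap at any day.

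The other alpha subunits went another way. Epas1 (HIF-2 alpha) was lower by a difference of -0.51 (adjusted p = 0.0013) and Hif3a was not called at -0.05. Of the partner subunits, Arnt was lower at -0.32 and Arnt2 at -0.47, although a second probe set of Arnt2 gave -0.01. Vhl was higher at 0.49. Of the other prolyl hydroxylases, Egln2 was lower at -0.42 and Egln1 was called higher at 0.77, with -0.30 by its second probe set, so that the direction of Egln1 was not settled. Cited2, an inhibitor of HIF transcription, was not called at -0.06.

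Glycolysis and lactate genes were mostly higher in tumour. Of 16 genes, 13 were called higher and the other 3 in neither direction, beside 36.8% higher and 37.8% lower of all genes. The median difference of the list was 1.02. Aldoa (aldolase A) rose by 2.61 (SE 0.18, limma adjusted p = 1.8e-09), and the lactate exporter Slc16a3 rose by 2.06 (SE 0.16, adjusted p = 1.0e-08). Pfkfb3, a regulator of phosphofructokinase, rose by 2.61 and hexokinase Hk1 by 2.00, but other probe sets of these genes gave -0.15 and 0.74 for Pfkfb3 and -0.27 to 0.83 for Hk1. Ldha, a subunit of lactate dehydrogenase, had a difference of -0.22 and was not called (adjusted p = 0.12). It was called lower without the liver of rat 7 (-0.32, adjusted p = 0.0057), without the 3 arrays of rat 7 (-0.35, 0.0013) and after quantile normalization (-0.33, 0.039), and the list's count of genes called lower was then 1 to 2.

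Of 21 other hypoxia-regulated genes (23 listed), 14 were called higher in tumour, 4 lower and 3 in neither direction, with a median of 0.89. Beside them, 36.8% of all genes were called higher and 37.8% lower. The 4 called genes with the largest differences were Lox, which cross-links collagen and rose by 4.43 (SE 0.31), Plod2, a collagen lysyl hydroxylase, by 4.19 (SE 0.27), the chemokine receptor Cxcr4, by 2.87 (SE 0.15), and P4ha1, a collagen prolyl hydroxylase, by 2.25 (SE 0.16). The adjusted p of these 4 genes was at most 2.6e-09. The transferrin receptor Tfrc had -0.30 and was not called (adjusted p = 0.077). It was called lower with rat as a random block (-0.30, adjusted p = 0.045), after quantile normalization (-0.34, 0.04), without the 3 arrays of rat 7 (-0.26, 0.027), without the tumour of rat 7 alone (-0.37, 0.025) and without the liver of rat 9 (-0.42, 0.0031).

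Receptors and relatives of the 8 members were mixed, with 5 called higher, 6 lower and 8 in neither direction of 19 measured (20 listed). Of all genes 36.8% were called higher and 37.8% lower, so neither count stands above that share. The median of the list was -0.06. Slc2a2 (GLUT2), the glucose transporter of hepatocytes, was lower in tumour with a difference of -3.48 (SE 0.53, adjusted p = 1.9e-05), opposite to Slc2a1 and Slc2a3. Car14, another carbonic anhydrase, was lower at -2.32, opposite to Car9. Ndrg2 was lower at -2.77, opposite to Ndrg1, although a second probe set of Ndrg2 gave 0.01. Ramp3, part of an adrenomedullin receptor, was higher at 1.89, and Vegfc was not called at -0.20. The hepatocyte list was lower in tumour in the same contrast, and its part in these differences was not tested.

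The next comparisons asked how the genes changed as the tumour grew. Between tumours of day 25 and day 10, 0 of the 8 members were called by limma, beside 0.0563% of all genes in either direction, so this test called almost nothing. All 8 differences were above 0 and their median was 1.07, beside 0.00 for all genes. At an unadjusted p under 0.05 there were 4 of 8 members and 2444 of 14218 genes. The largest was Adm at 1.66 (95% interval 0.38 to 2.94, adjusted p = 0.20), followed by Slc2a3 at 1.42 (interval 0.49 to 2.36, adjusted p = 0.17) and Car9 at 1.24 (interval 0.47 to 2.02, adjusted p = 0.16). The other probe sets gave 0.74 for Slc2a3, 1.08 for Ndrg1 and 0.71 for Vegfa, none called.

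For Car9, Egln3 and Slc2a3 all 3 day 25 tumours exceeded all 3 day 10 tumours, which 12.2% of all genes did. For the other 5 members the groups overlapped, each time through the tumour of rat 9, which was the lowest of the day 25 tumours in all 8 members (38.1% of all genes). That array is one of the 3 with pancreatic acinar transcripts. A fit without those 3 arrays called more of the transcriptome, with 3.25% of all genes higher and 4.88% lower at day 25 than at day 10. In it 5 of the 8 members were called higher: Adm at 2.34 (limma adjusted p = 0.023), Slc2a3 at 1.88 (0.020), Car9 at 1.69 (0.015), Ndrg1 at 1.55 (0.018) and Slc2a1 at 1.48 (0.041). Without the tumour of rat 9 alone, Car9 was called (1.69, adjusted p = 0.037), beside 0.506% of all genes called higher. Without the 3 arrays of rat 7 no member was called, and the 8 differences ran from 0.45 for Vegfa to 1.28 for Slc2a3. The part of acinar tissue in the result was not tested.

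The differences between day 15 and day 10 tumours had the same sign. Between day 15 and day 10, 0 members were called by limma, beside 0.00% of all genes, and 2 had an unadjusted p under 0.05, Slc2a3 at 1.41 and Ndrg1 at 0.99. The other probe sets gave 0.43 for Slc2a3 and 0.64 for Ndrg1. For 5 members, Car9, Egln3, Ndrg1, Slc2a3 and Bnip3, all day 15 tumours lay above all day 10 tumours, beside 5.86% of all genes. By the other probe set of Slc2a3 these groups overlapped, with the lowest day 15 tumour at 5.55 and the day 10 tumours at 5.69 to 5.83. Between day 25 and day 15 the differences ran from -0.16 for Vegfa to 0.84 for Adm, with 0 members called (0.00% of all genes) and 0 at an unadjusted p under 0.05.

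The tumour-liver difference itself was compared between day 25 and day 10, and 0 members were called by limma, beside 1.46% of all genes in either direction. The change was 1.57 for Adm (adjusted p = 0.35) and 1.41 for Car9 (adjusted p = 0.18), where 1 member had an unadjusted p under 0.05. For Egln3 it was -0.66, and 0.10 without the 3 arrays of rat 7. Without the 3 arrays with acinar transcripts Car9 was called, at 1.85 (adjusted p = 0.036), beside 2.90% of all genes in either direction.

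**Figure D3:**
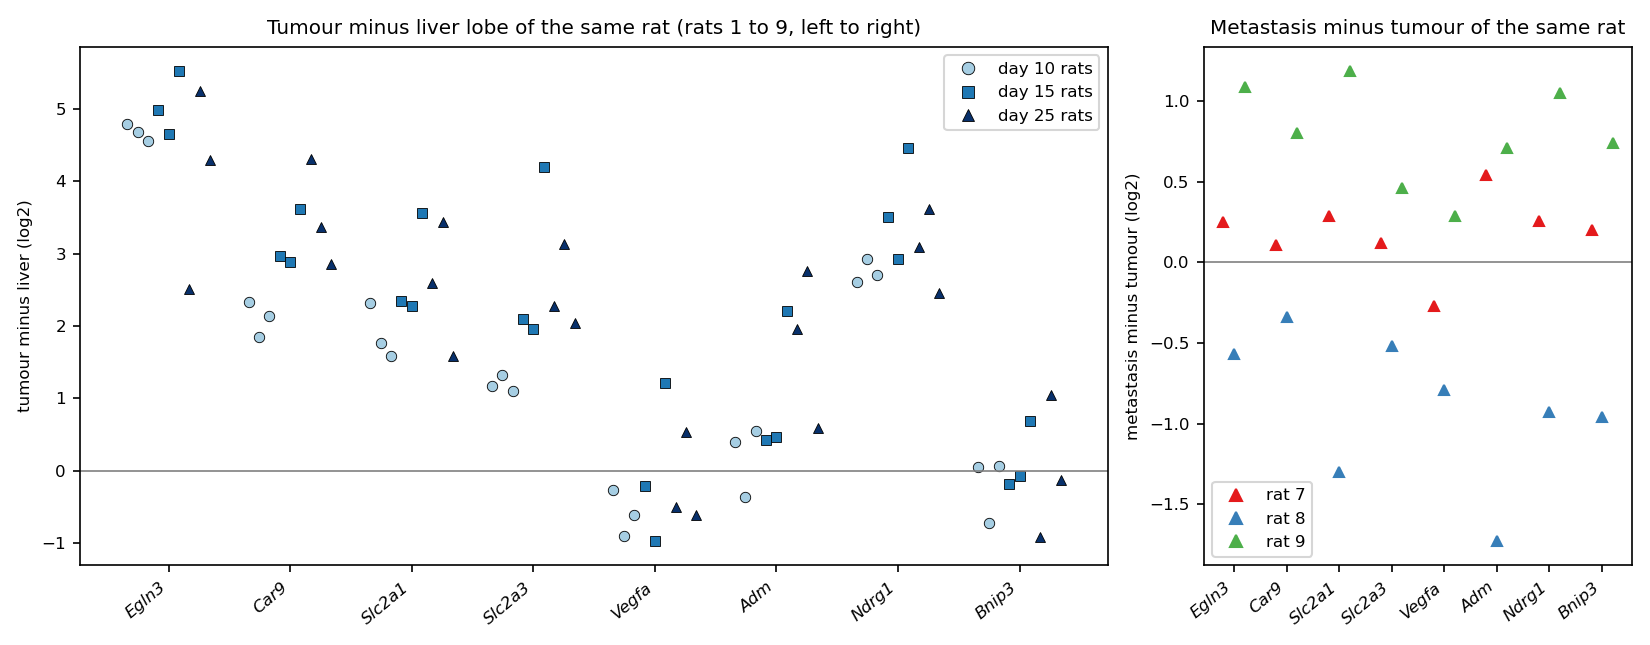
Left, tumour minus liver lobe of the same rat on the log2 scale (vertical axis) for the 8 genes, with 1 point for each of 9 rats and the shape showing the day. Right, metastasis minus tumour of the same rat for rats 7, 8 and 9. Rat 8 lies below 0 for all 8 genes in the right panel and rat 9 above 0 for all 8.

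The metastases were compared with the primary tumours of the same 3 rats. By limma 0 members were called, beside 0.338% of all genes, and 0 had an unadjusted p under 0.05. No member was called without the 3 arrays with acinar transcripts or without the 3 arrays of rat 7, beside 19 and 187 of 14218 genes. Over all alternative fits the lowest limma adjusted p of a member was 0.41, for Car9. The fitted differences were small, from -0.26 for Vegfa (95% interval -1.03 to 0.52) to 0.26 for Egln3 (interval -1.09 to 1.61). Except for Car9 and Slc2a3, each interval passes 1 log2 unit in at least 1 direction, as for Adm (-1.44 to 1.12). A doubling or halving is therefore not excluded for those members.

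The rats went in opposite directions. In rat 9 the metastasis exceeded the tumour for 8 of 8 members, by 0.29 (Vegfa) to 1.19 (Slc2a1). In rat 8 it was lower for 8 of 8, with differences from -1.73 (Adm) to -0.34 (Car9), and in rat 7 it was higher for 7 of 8, all within 0.54 of the tumour. The share of all genes that moved the same way in each rat was not counted, so these counts are not read as particular to the members. The metastasis of rat 8 and the tumour of rat 9 are the 2 arrays of day 25 with acinar transcripts, and in both rats the array with those transcripts was the lower one for all 8 members. Whether acinar tissue lowered these values was not tested.

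Against the day 25 livers, 6 of the 8 members were called higher in the metastases, beside 33.4% of all genes, and for the same 6 all 3 metastases lay above all 3 livers (32.9% of all genes). Egln3 rose by 4.28 (SE 0.64), Car9 by 3.70 (SE 0.37), Ndrg1 by 3.18 (SE 0.42), Slc2a1 by 2.59 (SE 0.50) and Slc2a3 by 2.50 (SE 0.44), each with limma adjusted p of at most 0.00035. Adm rose by 1.61 (SE 0.61, adjusted p = 0.032). It was not called without the metastasis of rat 7 (0.87, adjusted p = 0.20) or without all 3 arrays of rat 7 (1.17, 0.086). The call also ended without the liver of rat 8 (1.40, 0.099) or without that of rat 9 (1.52, 0.082). Vegfa had -0.45 (adjusted p = 0.30), and each metastasis was below the liver of the same rat. Bnip3 had 0.00 (95% interval -1.11 to 1.10). In metastases the hepatocyte list lay far below its level in tumours, with 8 of its 17 genes under the lowest array median, and its part in these differences was not tested.

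By mean level, metastases and day 25 tumours led the order of the 7 groups for 6 members and overlapped each other in each of them. Day 15 and then day 10 tumours followed for those 6, Car9, Egln3, Ndrg1, Adm, Slc2a1 and Slc2a3, and the livers came last. Neighbouring groups in this order were apart between day 10 tumours and the highest liver group for 5 of them, and overlapped for Adm. For Vegfa and Bnip3 every neighbouring pair of groups overlapped.

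Tumours of the same day were close at day 10 and further apart later: for each of the 8 members the SD was larger at day 15 and at day 25 than at day 10, as for Egln3 at 0.05, 0.30 and 0.82 for days 10, 15 and 25. Whole arrays also grew less alike, so this spread is not particular to the members. The mean r of a tumour array with its group was 0.992 to 0.994 at day 10, 0.975 to 0.986 at day 15 and 0.959 to 0.978 at day 25. The share of all genes with a larger SD was not counted. The tumour of rat 6 was the highest of the day 15 tumours for 8 of 8 members, beside 37.0% of all genes. Over all days, the tumours of rats 6, 7 and 8 lay above the other 6 tumours for each member, and because these 3 tumours were picked from the same values, no test is given. The share of all genes with this order was not counted. The gap was widest for Adm, at 8.08 to 8.68 in the upper 3 tumours and 5.63 to 6.64 in the other 6, and for Slc2a1, at 9.91 to 10.35 and 8.16 to 8.76. It was narrow for Vegfa, at 9.37 to 10.77 and 8.74 to 9.28. None of the upper 3 tumours is an array with acinar transcripts, and their hepatocyte means were 10.35, 8.34 and 11.12, within or below the 10.64 to 12.19 of the other 6.

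**Figure D4:**
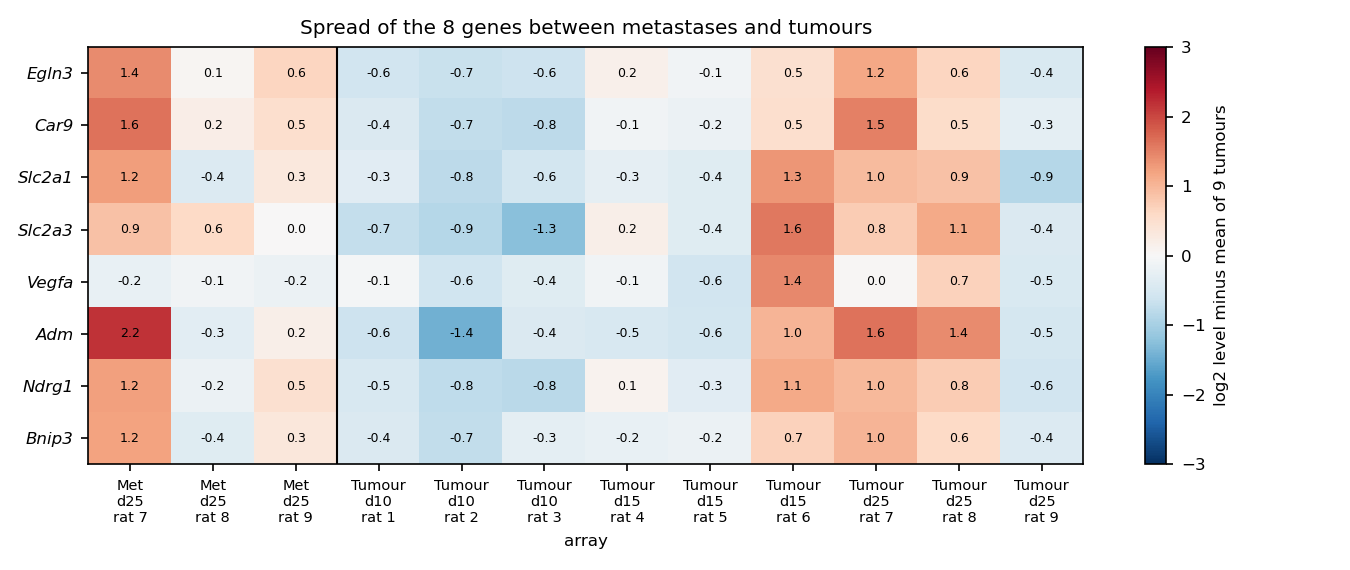
Log2 level of the 8 genes minus the mean of the 9 tumours (colour and printed value) in each metastasis and tumour (columns, by day and rat). The tumours of rats 6, 7 and 8 are above 0 for every gene, and the other 6 tumours are at or below 0.2.

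For each member an upper 3 tumours lay above a lower 6, and a correlation over all 9 would include that order, to an extent not tested. For Car9, Egln3 and Vegfa the largest gap between tumours set only 1 tumour apart. Within the lower 6 tumours, Pearson's r of the 28 pairs of members ran from 0.24 to 0.94 with a median of 0.53, all above 0, and Spearman's rho from -0.03 to 1.00. These values are a description with no test, since the 6 tumours were set apart by the levels of the same genes. These 6 tumours include all 3 of day 10, so day is shared in these pairs.

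The genes whose levels over the 9 tumours were most like a member's, among 9806 genes above the lowest array median in tumours, are given as a description, since the upper 3 tumours can shape each r. For Slc2a1 they were Hilpda (r = 0.98), Mxd1 (0.97) and Slc16a3 (0.97). For Egln3 they were Pgam1 (0.98), Arid3b (0.97) and Pfkl (0.97), and for Vegfa they were Nfkbiz, Ero1a and Klhl26 (0.97 each). Ndrg1 was followed by Zswim4 (0.99), Gys1 (0.98) and Rundc1 (0.97), Car9 by Map2k1 (0.99), Tiparp and Fut2 (0.98 each), and Slc2a3 by Inhbb, Ptprs and Dmxl1 (0.96 each). Adm was followed by Tanc2 (0.99), Gmeb2 (0.98) and Ccl3 (0.97), and Bnip3 by Mif (0.98), Wdr54 (0.98) and Tanc2 (0.97), so that Tanc2 was named for 2 members. Over the 9 livers the r of the same 24 gene pairs ran from -0.59 to 0.75.

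In the livers no member was called between days. Between day 25 and day 10, 0 members were called by limma, beside 9.10% of all genes in either direction (5.33% higher, 3.77% lower), and 1 had an unadjusted p under 0.05. That was Egln3, with a difference of 1.73 (95% interval 0.38 to 3.09, adjusted p = 0.10), which was 0.62 without the 3 arrays of rat 7 (adjusted p = 0.16). Without the liver of rat 9 it was 2.32 and was called (adjusted p = 0.033), beside 7.26% of all genes called higher. Its 3 liver groups were ordered by day without overlap, but the lowest day 25 liver was at 4.64 and the highest day 15 liver at 4.61. All livers except that of rat 7 lay at 4.01 to 4.75, under the lowest array median of 5.98, so this order rests on low values. For Ndrg1 the day 25 livers lay above those of the other days. By its other probe set they overlapped day 15, from 7.15 at day 25 against up to 7.18. The share of all genes with such orders was not counted. Between day 15 and day 10 the 8 differences lay between -0.32 and 0.42, and between day 25 and day 15 between 0.04 and 1.31, with 0 members called by limma and 0 at an unadjusted p under 0.05 in both, beside 0.0281% and 2.20% of all genes.

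Some other hypoxia-regulated genes were called in the liver lobe. Of the 21 measured, 4 were called higher at day 25 than at day 10, beside 5.33% of all genes, and the other 17 in neither direction: Plod2 at 2.57 (limma adjusted p = 0.0036), Hmox1, which breaks down haem, at 2.29 (0.0031), Lox at 1.90 (0.039) and P4ha1 at 1.07 (0.025). Of the glycolysis list Aldoa was called higher at 1.22, Hk1 higher at 0.76 and Pdk1, a kinase that inhibits pyruvate dehydrogenase, lower at -1.33. Of the receptors and relatives Nrp2, a co-receptor for vascular growth factors, was called higher at 0.71, and Slc2a5, the fructose transporter GLUT5, lower at -1.09, as were Car14 at -1.13 and Ndrg2 at -1.42. Hmox1, Pdk1, Nrp2 and Slc2a5 were named after their values were seen. Without the 3 arrays of rat 7, 6 of these 11 genes were still called (Plod2, Hmox1, Lox, Aldoa, Pdk1 and Nrp2). When each of the 6 livers was left out in turn, Plod2 and Hmox1 were called each time (adjusted p at most 0.021), and each of the other 9 lost its call at least once. The 4 calls of the 21 genes were 2 without the liver of rat 1, without that of rat 7 or with the compared groups alone. The 2 glycolysis genes called higher were 0 without the liver of rat 1, 2 or 7, and Pdk1 was not called without that of rat 2, 3, 7 or 8. The neutrophil list had means of 7.50 to 8.08 in day 25 livers and 5.42 to 6.26 in day 10 livers, and the macrophage list 9.34 to 9.90 and 8.72 to 8.94, neither with overlap. The myofibroblast list had 7.59 to 8.52 in day 25 livers and 7.12 to 7.86 in day 10 livers, which overlap. The part of these cells was not tested.

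The day 25 liver of rat 7 stood apart. For 7 of the 8 members it was the highest of the 9 livers, beside 21.2% of all genes. By the other probe sets this held for Ndrg1 but not for Slc2a3 and Vegfa. Slc2a3 was then at 5.34 in rat 7 and 5.47 in rat 3, and Vegfa at 8.42 in rat 7 and 8.54 in rat 2. Each other liver was the highest for 0 or 1 member and for 7.86% to 12.8% of genes. The excess was largest for Egln3, at 8.03 in rat 7 and 4.01 to 4.75 in the other 8 livers, and for Bnip3, at 11.61 in rat 7 and 9.20 to 9.69 in the others. In excess over the highest other liver, Egln3 ranked 5 and Bnip3 41 among the 14218 genes. Car9 was the exception, at 5.60 in rat 7 within the 5.26 to 5.80 of the others, all under the lowest array median of 5.98.

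This liver did not share the tumour's order of genes. Its Bnip3 level exceeded the 10.89 of the metastasis and the 10.69 of the tumour of rat 7, whereas its Egln3 level was below both (10.80 and 10.54). The bile duct marker Krt19 was 7.77 in this liver and 4.86 to 6.46 in the other 8, against 12.25 in the tumour of rat 7. Epcam was 9.07 in it and 6.51 to 8.30 in the others, whereas Krt7, at 6.42, lay within their 5.19 to 6.56. The biliary list averaged 7.25 in this liver and 5.63 to 6.62 in the others, and the hepatocyte list 13.28 and 12.86 to 13.23. Erbb2 was 5.69 in it and 4.98 to 5.61 in the others. The part of tumour cells in this liver's values was not tested.

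The liver of rat 7 was also the highest of the 9 for 12 of 21 other hypoxia-regulated genes and 9 of 16 glycolysis genes. It was the highest for 3 of 9 oxygen sensing genes and 2 of 19 receptors and relatives, beside 21.2% of all genes. Ddit4, an inhibitor of mTOR signalling, was at 10.37 in it and 5.62 to 7.69 in the others, and Hmox1, a heme oxygenase, at 11.87 and 8.34 to 10.44. Aldoa was at 11.82 and 9.46 to 10.49, and Pfkfb3 at 7.45 and 4.89 to 5.43. Genes of the same lists also lay below the other 8 livers. Angptl4, a lipase inhibitor, was at 7.41 in it and 9.55 to 10.87 in the others, Ldha at 12.17 and 12.37 to 13.17, and Pgk1 at 11.66 and 12.10 to 12.53. These genes of the liver of rat 7 were chosen after their values were seen, and with 1 array there is no test.

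**Figure D5:**
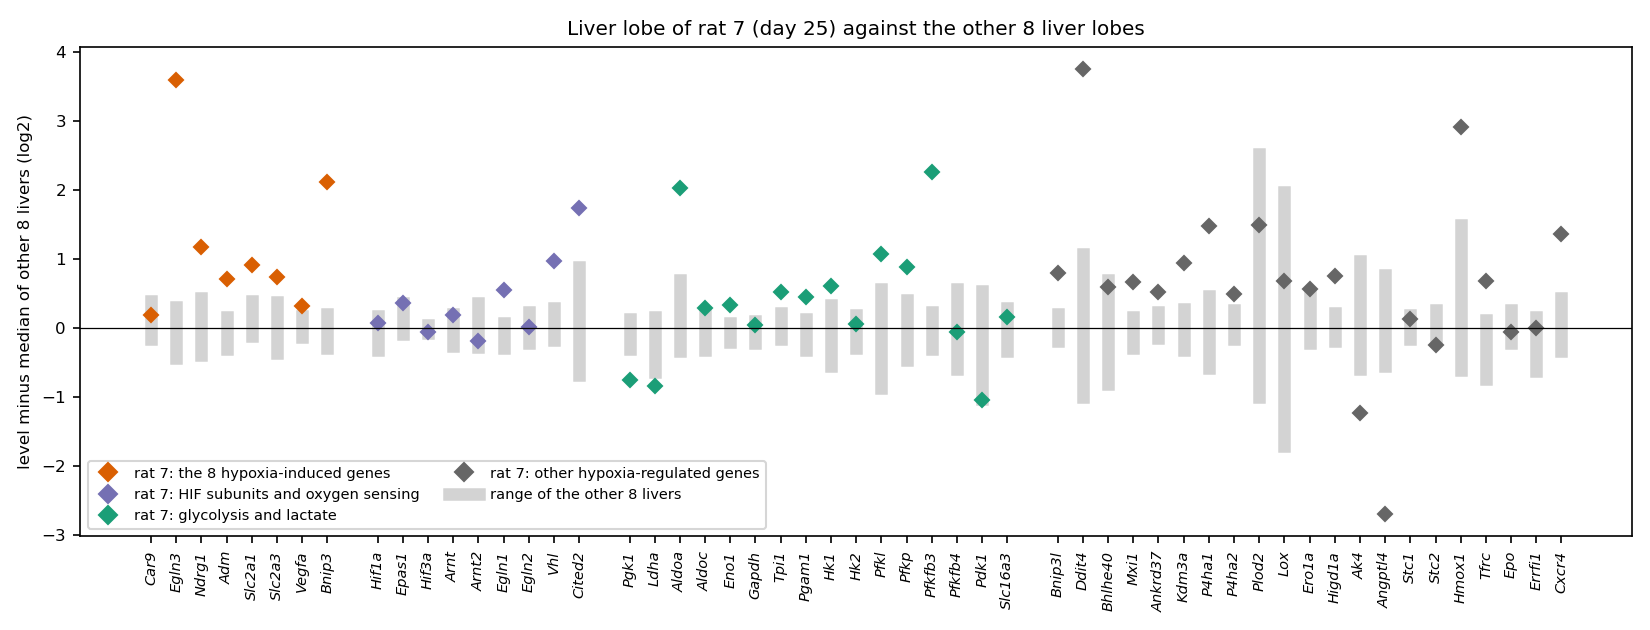
Level of 54 genes in the day 25 liver of rat 7 minus the median of the other 8 livers (diamonds, log2, vertical axis), grouped into the 8 hypoxia-induced genes and 3 lists (horizontal axis). Grey bars span the other 8 livers. Egln3, Bnip3, Ddit4 and Hmox1 lie far above the bars and Angptl4 far below.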

How the data were processed

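The authors deposited log2 values, 1 per probe set of Affymetrix rat arrays, made with RMA, per the submitters' processing notes; RMA corrects background, aligns the distributions of all arrays and sums up the probes of a set. The table held 31099 probe sets, with values from 3.16 to 14.62 and array medians from 5.98 to 6.06. RMA's alignment would partly remove a shift of most transcripts, and no detection calls came with the values. Arrays have no read depth, and the number of arrays limits the precision.

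Probe sets were named through the platform annotation (20832 with 1 symbol, 436 with several and 9831 unnamed here), with symbols updated through the gene identifier. Of these, the probe set with the highest mean stood for each of 14218 genes. limma 3.58.1 (R 4.3.3) fitted 7 group means over all 21 arrays, and p-values were adjusted by Benjamini-Hochberg over all genes; calls are at an adjusted p under 0.05. A gene list is described by its counts and median.

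The members and lists were chosen with earlier results of these data known. The text names all 8 members, Erbb2, the oxygen sensing list, and of each other list up to 4 called genes with the largest tumour-liver difference and the uncalled gene with the highest mean, as well as the 3 genes most like each member. The sample titles hold no rat numbers, so tissues are paired through the pairing codes in the liver titles and the replicate numbers. Deviations from the group means of 1 rat's tissues correlated with r of 0.04 to 0.58. Data were simulated for tumour against liver at day 10 over 14218 genes, with 200 genes changed and independent noise. In them 82% of changes of 1 and 96% of changes of 2 (log2) were recovered, with 18 false calls. The real comparison called 58.4% of all genes, so these rates check the fit and do not describe the data. Sequences are RefSeq promoters (GRCr8).

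Alternatives were the probe set rule, another normalization or centring, a filter on dim probe sets, a trended prior, the groups compared alone, a rat block and leaving out arrays.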

Additional observations from a re-analysis of the deposited data

How the results depend on the processing

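Of the 13 counts of called members and the count of correlated pairs, 241 values under an alternative stayed within 1.5 times the reported count and 6 did not. Members called between tumours of day 25 and day 10 numbered 5 without the 3 arrays with acinar transcripts, where 3.25% of all genes were called higher, and 0 to 1 when 1 array was left out (1 without the day 25 tumour of rat 9). The change of the tumour-liver difference gave 1 and 0 to 1 in the same fits, and liver day 25 against day 10 gave 0 to 1. Over all 9 tumours 26 of 28 pairs of members had an adjusted p under 0.05 by an exact permutation test. The count was 24 to 28 when 1 tumour was left out. The count includes the order of an upper 3 above a lower 6 tumours, to an extent not tested, and the permutation pooled tumours of different days. It is therefore not read as evidence of a link between members. Of the 28 pairs, 24 had r over 0.75, beside 7.41% of pairs of all genes. Over the 6 tumours of rats 1 to 5 and 9, chosen after seeing the levels of the same genes, 1 pair passed, again no test. That set has fewer samples, and the cause of the change was not tested. With rat as a replicate block (correlation 0.136) 6 members were called in tumour against liver over all days, as without it, and the block changed no other call of a member.

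Of the single genes, 42 values changed sign, nearly all of them uncalled differences near 0, and the cause was not tested. Bnip3 in tumour against liver was 0.159 without the acinar arrays and 0.131 without rat 7 over all days (-0.164 to 0.234 with 1 array left out), -0.162 to 0.298 at day 15, and -0.038 after median centring at day 25 (-0.425 to 0.768). In metastasis against liver it was 0.373 and 0.352 without those arrays (-0.43 to 0.762), and in liver day 25 against day 10 it was -0.0833 without rat 7 (-0.0833 to 1.11). Vegfa in tumour against liver at day 15 was -0.0137 after quantile normalization and -0.0515 after centring (-0.587 to 0.422). At day 25 it was 0.0103 with its other probe set, which also has the highest variance, and 0.0787 without the acinar arrays (-0.496 to 0.0787). With 1 array left out Vegfa ran from -0.00947 to 0.999 for day 15 against day 10, -0.576 to 0.432 for day 25 against day 15 and -0.531 to 0.0435 for metastasis against tumour. Adm at day 10 ran from -0.0042 to 0.501. Egln3 ran from -0.192 to 0.617 in metastasis against tumour and from -1.24 to 0.455 in the change of the tumour-liver difference, where it was 0.0954 without rat 7. Cited2 was 0.105 without rat 7 (-0.197 to 0.187), and Hif3a 0.0425 after quantile normalization. Fitting the compared groups alone called Vegfa lower in tumour at day 10 (-0.60, limma adjusted p = 0.005) and in metastasis against liver (-0.45, 0.044), and ended the calls of Adm at day 25 (0.071 in tumour, 0.098 in metastasis). Without the acinar arrays Adm was called at day 15 (1.31, 0.048). Alternatives without the arrays of rat 7 and with the second probe sets were chosen after seeing the data.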

Other observations

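The genes with the largest excess in the day 25 liver of rat 7 over the other 8 livers were mostly not on the lists above. They were chosen by this excess, from 1 array, and have no test. Sned1 was at 11.33 in the liver of rat 7 and 6.47 to 7.28 in the other livers, and Arrdc4 at 10.21 and 5.91 to 6.44. Esm1, a proteoglycan of endothelial cells, was at 8.05 and 3.86 to 4.68, Fst (follistatin, which binds activins) at 11.14 and 4.59 to 7.88, and Wnt4, a secreted Wnt ligand, at 9.76 and 4.39 to 6.63. Arrdc4 and Wnt4 were at 5.68 and 4.76 in the tumour of rat 7, below the liver of the same rat. So were Sned1 at 8.42, Fst at 8.27 and, by little, Esm1 at 8.02. Ranked between these genes were also Pptc7, at 11.55 in that liver and 8.47 in the tumour, and Emp1, at 11.39 and 12.44. In all, 217 genes were more than 1 log2 unit above the highest other liver, against 0 to 11 genes for each of the other 8 livers. The receptor Kdr, through which Vegfa acts on blood vessels, was at 7.98 in the liver of rat 7 and 9.27 to 9.87 in the others.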
